A study of Mus musculus with 4 samples.

Results

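Lysosomes digest cargo with acid hydrolases, and the vacuolar proton pump (V-ATPase) supplies the acid. The genes described here were 33 named members of that system, namely 17 pump subunits, 8 cathepsins and 8 other lysosomal genes. Members were all probe sets that the annotation of the mouse array gave to 1 of these symbols alone, which made 74 of 45037 non-control probe sets. They covered 31 genes, since no probe set carried the symbol Atp6v0c or Cd63 alone in the annotation used here. Of the 74 probe sets, 63 passed a filter on dim signals (mean over the 4 arrays above the median of all probe sets), and every one of the 31 genes kept at least 1. The other 11 had signals between 1.2 and 146.2 and were left out of the tests.

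The cells were naive helper T cells, taken as CD4+ CD62L+ CD44- by sorting from mice 10 to 11 weeks old, and their RNA was hybridised to arrays. All mice carried fur flox/flox alleles of furin. The arrays labelled knockout came from CD4-cre fur flox/flox mice, in which the CD4 promoter drives the Cre recombinase in T cells, and those labelled wild type from fur flox/flox littermates without Cre. Affymetrix arrays were available for 2 samples per genotype, numbered 1 and 2, and so few arrays limit precision throughout. Whether a group's arrays stem from separate or pooled animals is not stated in the labels, so p-values here reflect only how far these samples spread, which may be technical.

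Furin is a protease of the secretory pathway that cuts precursor proteins behind basic residues, and the pump's accessory subunit Atp6ap1 (Ac45) is among the proteins it is known to cleave. The V-ATPase consists of a membrane sector, V0, that passes protons, and a cytosolic sector, V1, that hydrolyses ATP, and both are assembled with accessory proteins. Cathepsins are the proteases that work in the acid lumen, and many of them are made as precursors that mature there. Transcription of many lysosomal and pump genes is driven by Tfeb and its relatives, which bind a DNA element with the core CACGTG. The arrays measure messenger RNA, so neither cleavage by furin nor acidity was measured.

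Signals are given on the linear MAS5 scale, array 1 before array 2, and differences are knockout minus wild type on the log2(signal + 15.3) scale, which understates changes of dim probe sets. The single Furin probe set differed by 0.11 (-0.15 within arrays numbered 1 and 0.36 within arrays numbered 2). It may lie outside the deleted part, so it checks neither the deletion nor the labels. Arrays numbered 1 and 2 stood apart in each group. The geometric mean of 9 bacterial hybridisation controls was 2202 to 2542 on arrays numbered 1 and 13402 to 15878 on arrays numbered 2. The difference within each number therefore accompanies most values below, those of arrays numbered 1 first. T cell markers were present, with 9 of 9 measured markers kept and a median difference of -0.04.

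The array number moved the signal more than the genotype did, among the members about as among all kept genes. Of the 31 genes, 5 were at least 2-fold apart between array numbers on average, against 16.1% of all 10211 kept genes, and 10 passed limma between the numbers at a Benjamini-Hochberg adjusted p of 0.05, against 31.1% of kept genes. The widest gap was that of Lamp2, whose brightest probe set gave 3334 and 302 (wild type) and 3650 and 535.6 (knockout). Between the genotypes, 1 of the 31 genes, Ctsh, was at least 1.5-fold higher on average (3.43% of kept genes were) and 0 were as much lower (2.17% of kept genes were). Ctsh passed the filter only through the knockout arrays (log2 means of 6.15 in wild type and 6.96 in the knockout, with the filter at 6.24), so this count is a description. The same held for 4 of the 63 kept member probe sets, the pair for Ctsh, the dim one for Ctsa and the dimmest for Laptm5, and for 0 through the wild type. In limma without a block for array number, 0 of 63 kept member probe sets passed an adjusted p of 0.05, as did 0% of all 22518 kept probe sets. The dimmest kept one for Laptm5 was the 1 member probe set with an unadjusted p under 0.05, against 0.644% of all kept. With the number as a block, 0 member probe sets passed, where 0.0266% of all kept probe sets did. Here 2 had an unadjusted p under 0.05, that Laptm5 probe set and 1 for Lamp2, against 8.42%. As the Laptm5 one passed the filter only through the knockout arrays, these counts are descriptions. Adding a trended prior to the block, limma called 1 member probe set, that of Laptm5 just named, and 1.15% of all kept probe sets. Missing the threshold does not show equal levels. The blocked 95% interval lay within 2-fold in both directions for 28 of the 31 genes, and without the block for 4. The blocked widths rest largely on a variance shared over all probe sets, so they say little about each gene's own spread. How many of all kept genes had such intervals was not counted.

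**Figure D1:**
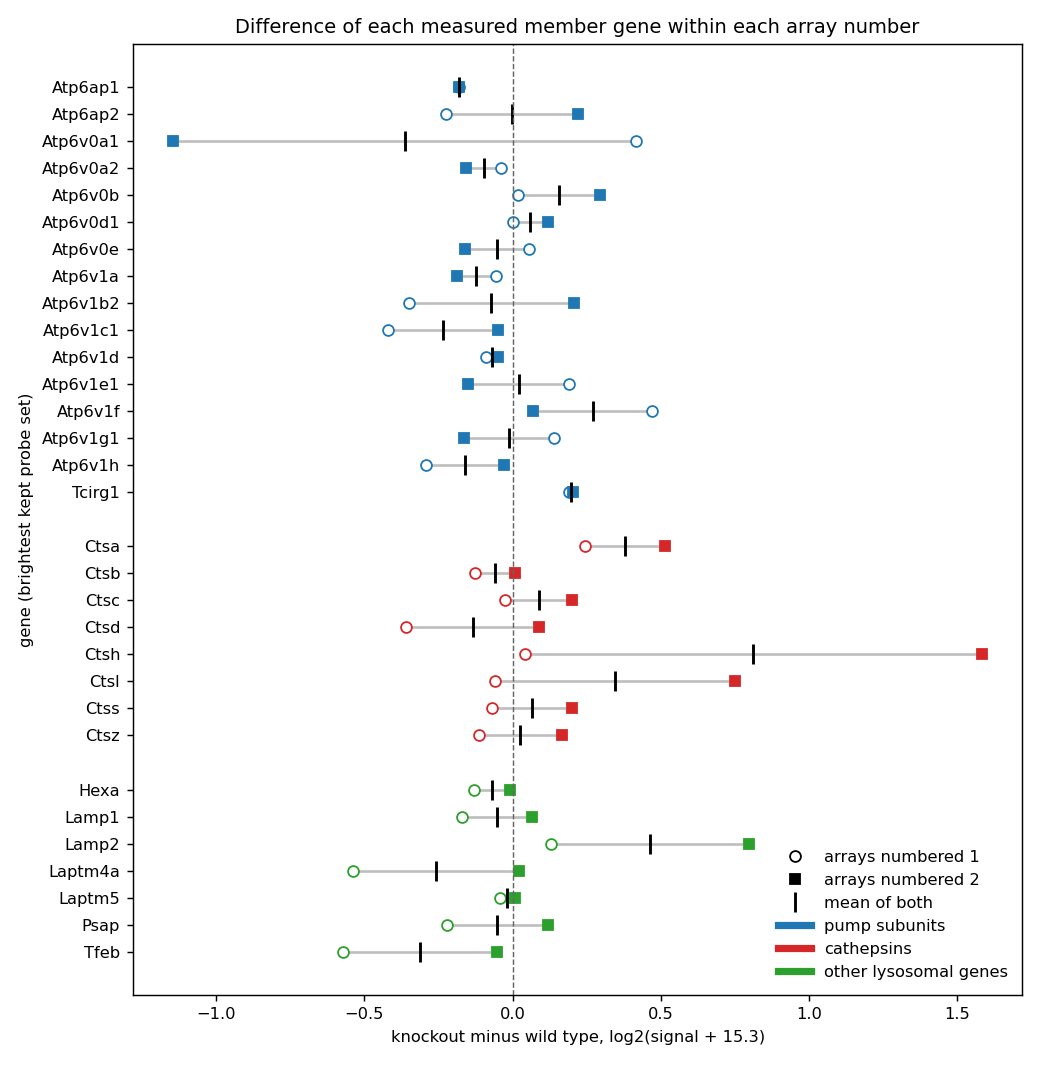
Knockout minus wild-type difference of the brightest kept probe set of each of the 31 measured genes, on the log2(signal + 15.3) scale, within arrays numbered 1 (open circles) and numbered 2 (filled squares), with the mean of both as a black bar. Pump subunits lie within 0.5 of 0 except Atp6v0a1, and all 8 cathepsins have their square to the right of their circle.

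The 16 measured pump genes differed little between the genotypes. Their median difference was -0.06 (-0.02 and -0.05 within the numbers), beside -0.002 over all kept genes (0.02 and -0.01), and single genes ran from -0.36 to 0.27. Of the 16, 4 were higher and 6 lower within both numbers, where 27.7% and 27.2% of kept genes were, and 6 changed sign between numbers. No pump gene was 1.5-fold apart within both.

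Atp6ap1, the accessory subunit that furin cleaves, had signals of 3726 and 4069 (wild type) and 3288 and 3587 (knockout). Both knockout arrays lay below both wild-type arrays, and the difference was -0.18 within each number. Its SE was 0.32 without and 0.19 with the block, and the blocked 95% interval ran from -0.65 to 0.29 (limma, adjusted p = 0.843) and so included 0. With a trended prior added to the block, the SE was 0.14 and the limma adjusted p 0.739. The probe set is of a type (suffix s) designed to match transcripts of more than 1 gene or variant. Atp6ap2, the other accessory subunit and also known as the prorenin receptor, had signals of 17494 and 5039 (wild type) and 14965 and 5878 (knockout). The groups overlapped, and the differences of -0.23 and 0.22 had opposite signs. That brightest probe set is of a type (suffix x) whose probes can also bind other transcripts. Another Atp6ap2 probe set of type x was at 0.04 (-0.14 and 0.21). One with no such suffix was at -0.19 (-0.29 and -0.09), and its groups overlapped too.

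The V1 subunits had a median of -0.07 over 8 genes. Of these, 1 was higher and 4 were lower within both numbers, where 27.7% and 27.2% of kept genes were. Atp6v1c1, a stalk subunit involved in assembly of V1 with V0, had signals of 5021 and 4788 (wild type) and 3753 and 4629 (knockout). All 3 of its probe sets were lower, by 0.21 to 0.39 on the log2 scale, and the brightest differed by -0.23 (SE 0.33, or 0.20 with the block), most of it within arrays numbered 1 (-0.42 against -0.05). Atp6v1h, a regulatory subunit, had signals of 2705 and 2276 (wild type) and 2207 and 2229 (knockout). Its groups did not overlap either, with a difference of -0.16 (-0.29 and -0.03). The groups did overlap in its other kept probe set, which was at -0.07 (-0.29 and 0.16).

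By brightest probe sets, both knockout arrays lay below both wild-type arrays for 3 of the 16 pump genes, Atp6ap1, Atp6v1c1 and Atp6v1h. Over all kept genes, 8% did so. Both lay above for 0 of the 16, against 8.69% of kept genes. None passed limma with or without the block. Atp6v1a, the catalytic subunit that binds ATP, differed by -0.12 (-0.06 and -0.19), and Atp6v1b2, the other nucleotide-binding subunit, by -0.07 (-0.35 and 0.21). Of the rotor subunits, Atp6v1d differed by -0.07 (-0.09 and -0.05) and Atp6v1f by 0.27 (0.47 and 0.07). Atp6v1f was the pump gene with the highest difference, and its signals of 2823 and 7782 (wild type) and 3915 and 8170 (knockout) were set apart mainly by array number. The stator subunits Atp6v1e1 and Atp6v1g1 stood at 0.02 (0.19 and -0.15) and -0.01 (0.14 and -0.16).

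**Figure D2:**
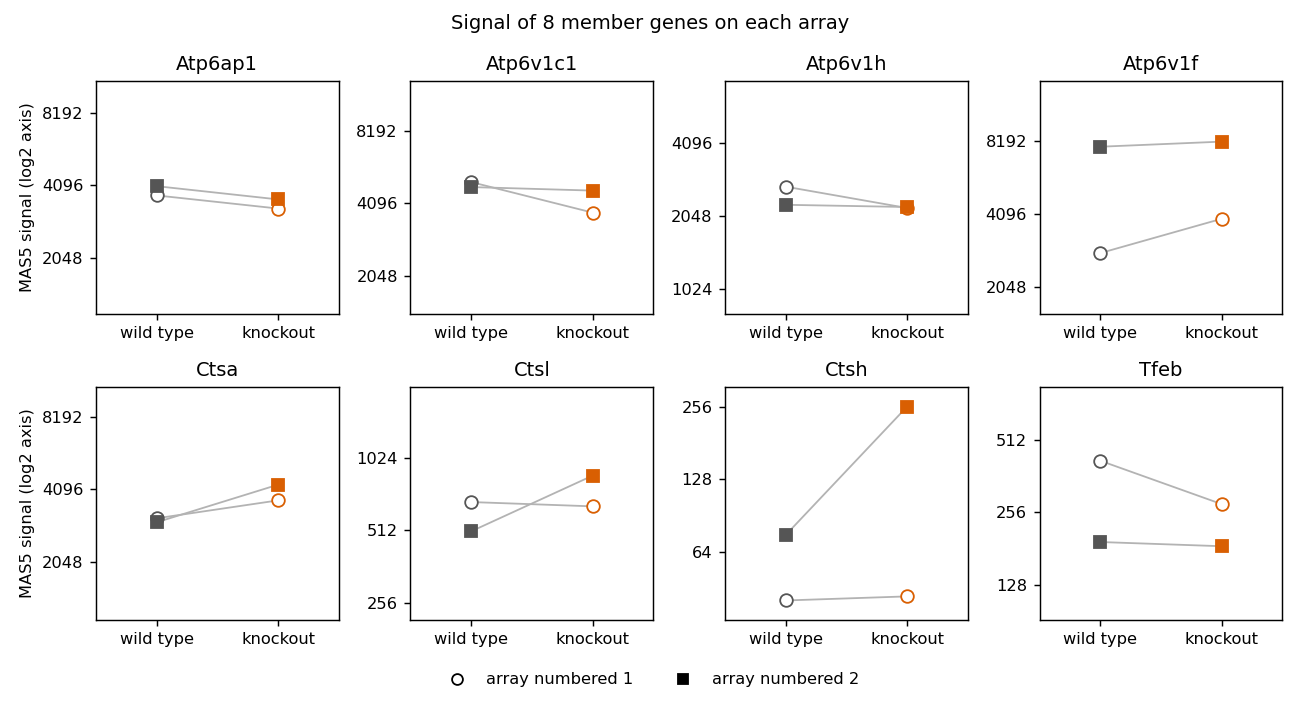
MAS5 signal of 8 member genes on each of the 4 arrays, on log2 axes that all span the same fold range; lines join the arrays of 1 number. Both knockout points lie below both wild-type points for Atp6ap1, Atp6v1c1 and Atp6v1h and above them for Ctsa, while Ctsh is high on the knockout array numbered 2 alone.

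The V0 sector had 6 measured genes with a median of 0.003. Its largest subunit, a, anchors V1 and carries protons through the membrane, and its isoforms direct the pump to different organelles. Tcirg1, the a3 isoform best known from osteoclasts, had signals of 677.1 and 777.3 (wild type) and 774.1 and 897.7 (knockout). The groups overlapped slightly, and the difference was 0.20 (SE 0.33 without and 0.19 with the block), with 0.19 and 0.20 within the numbers. Atp6v0a2 differed by -0.10 (-0.04 and -0.16), and its 3 probe sets ran from -0.30 to 0.14. Atp6v0a1 had the lowest difference of the 31 genes by their brightest probe sets, -0.36, but its signals of 45.9 and 198.4 (wild type) and 66.4 and 81.4 (knockout) were dim, and the differences of 0.42 and -1.14 within the numbers opposed each other. Only 1 of its 4 probe sets passed the filter.

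Among the proteolipid and linker subunits, Atp6v0b, part of the rotating ring, had signals of 1880 and 1175 (wild type) and 1904 and 1446 (knockout). That probe set differed by 0.16 (0.02 and 0.30), and the other kept ones of the gene by -0.26 and -0.20, so its probe sets gave no common direction. Atp6v0d1, which couples the ring to V1, was at 0.06 (0.001 and 0.12) and the small subunit Atp6v0e at -0.05 (0.05 and -0.16).

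The 8 cathepsin genes had a median difference of 0.08, and the array numbers disagreed. Within arrays numbered 1 the median was -0.06 and 6 of 8 cathepsins were lower in the knockout, whereas within arrays numbered 2 it was 0.20 and 8 of 8 were higher. Over all kept genes, 47.5% were lower within arrays numbered 1 and 48.0% higher within arrays numbered 2. Relative to each gene's own mean over the arrays, the cathepsin median was -0.07 and -0.26 (wild type) and 0.02 and 0.31 (knockout), so the lowest and the highest were both arrays numbered 2. The medians and counts here include Ctsh, which passed the filter only through the knockout arrays, so they are descriptions. Of the 8 genes, 2 were higher within both numbers (Ctsa and Ctsh) and 0 were lower, where 27.7% and 27.2% of kept genes were. None passed limma with or without the block.

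Ctsa, a serine carboxypeptidase that also protects lysosomal galactosidase and neuraminidase, was the cathepsin with the clearest separation. Its brightest probe set had signals of 3108 and 2992 in wild type, a mean of 3050 ± 81.7 (SD, n = 2), and 3687 and 4283 in the knockout, a mean of 3985 ± 420.9 (SD, n = 2). Both knockout arrays lay above both wild-type arrays. The difference was 0.38 (0.25 and 0.51; SE 0.32 without and 0.20 with the block), its blocked 95% interval ran from -0.11 to 0.87 and its blocked limma adjusted p was 0.658. A second, dim probe set was at 0.21 (-0.28 and 0.69).

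Ctsl, an endopeptidase of broad specificity, had signals of 669.8 and 506.6 (wild type) and 642.9 and 861.5 (knockout). The groups overlapped, and the difference of 0.35 came from arrays numbered 2 (-0.06 and 0.75). Without the knockout array numbered 2 it was 0.14. Ctsh, an aminopeptidase, had signals of 40.3 and 75.3 (wild type) and 41.9 and 256.1 (knockout). It was high on 1 array only, with a difference of 0.81 (0.04 and 1.58), and -0.31 when that array was left out. Its other probe set gave 0.16 and 1.13 within the numbers.

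Summed markers of B and myeloid cells, which the sort should remove, were also highest on the knockout array numbered 2. This did not hold for every such list. The summed markers of CD8 T or NK cells were highest on the knockout array numbered 1 (4328, against 3864 on that numbered 2). Those of erythroid cells or platelets were highest on the wild-type array numbered 2 (830, against 577.7 on the knockout array numbered 2). The summed signal of 13 measured B cell markers was 1323 and 5440 (wild type) and 1798 to 18838 (knockout), and 8 of the 10 kept ones were higher within both numbers (medians 0.16 and 1.66). For 18 myeloid markers the sum was 738.9 and 1920 (wild type) and 1407 to 12843 (knockout), with 15 of 15 kept ones higher within both (medians 0.75 and 2.07). Over all kept genes, 27.7% were higher within both. Ngp, the myeloid marker with the highest difference, passed the filter only through the knockout arrays (log2 means of 6.16 in wild type and 8.69 in the knockout). How many other markers did so was not counted, so these marker counts are descriptions. No marker of these lists was at 0 on any array. B and myeloid cells are known to make Ctsh, and the part of these markers in the Ctsh and Ctsl values was not tested. In bulk samples, fewer cells of a type and less RNA per cell cannot be told apart.

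**Figure D3:**
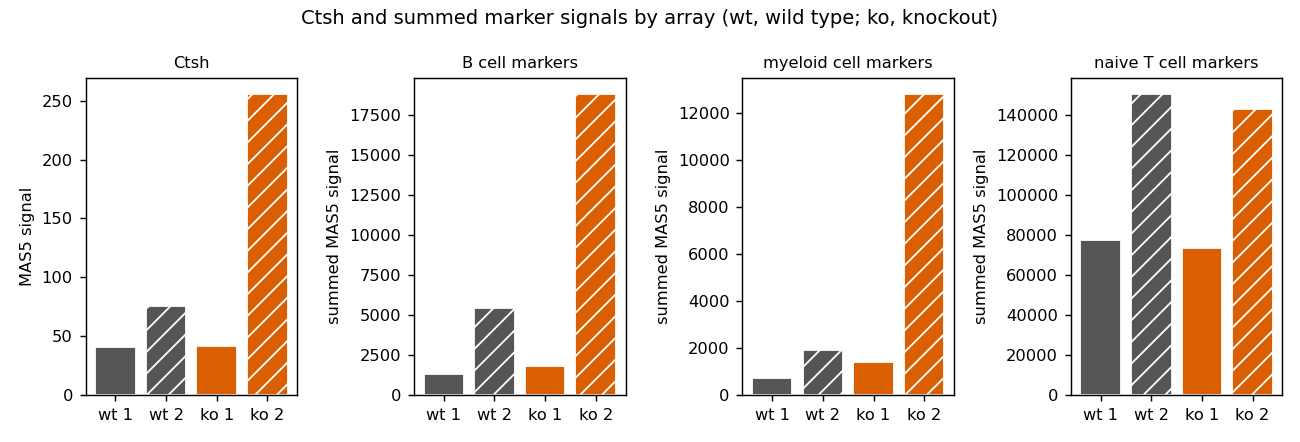
MAS5 signal of Ctsh and summed MAS5 signals of the measured B cell, myeloid and naive T cell markers on the 4 arrays (grey, wild type; orange, knockout; hatched, arrays numbered 2). Ctsh, B cell and myeloid bars are all highest on the knockout array numbered 2, whereas the naive T cell bars differ by array number and hardly by genotype.

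The remaining cathepsins were close to 0. Ctss, the protease that trims the invariant chain of MHC class II and is abundant in antigen-presenting cells, had signals of 11789 and 14572 (wild type) and 11244 and 16756 (knockout). Its difference was 0.07 (-0.07 and 0.20). Ctsd, the aspartic protease, differed by -0.13 (-0.36 and 0.09), and Ctsb, a cysteine protease with 5 kept probe sets, by -0.06, with probe sets from -0.19 to 0.03. Ctsc, which activates granule serine proteases, was at 0.09 (-0.02 and 0.20) and Ctsz, a carboxypeptidase, at 0.03 (-0.11 and 0.17). For these genes the groups overlapped.

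Pump genes and cathepsins were then set side by side. The pump median minus the cathepsin median was -0.14 over both numbers, 0.04 within arrays numbered 1 and -0.25 within arrays numbered 2. Its sign thus depended on the array number, and no separation between pump and protease genes was seen in both. With 1 array left out it ranged from -0.53 to -0.05. With all arrays and without Ctsh it was -0.13 over both numbers. In the plot of one number against the other, pump genes were spread around the origin and cathepsins lay above it along the axis of arrays numbered 2.

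**Figure D4:**
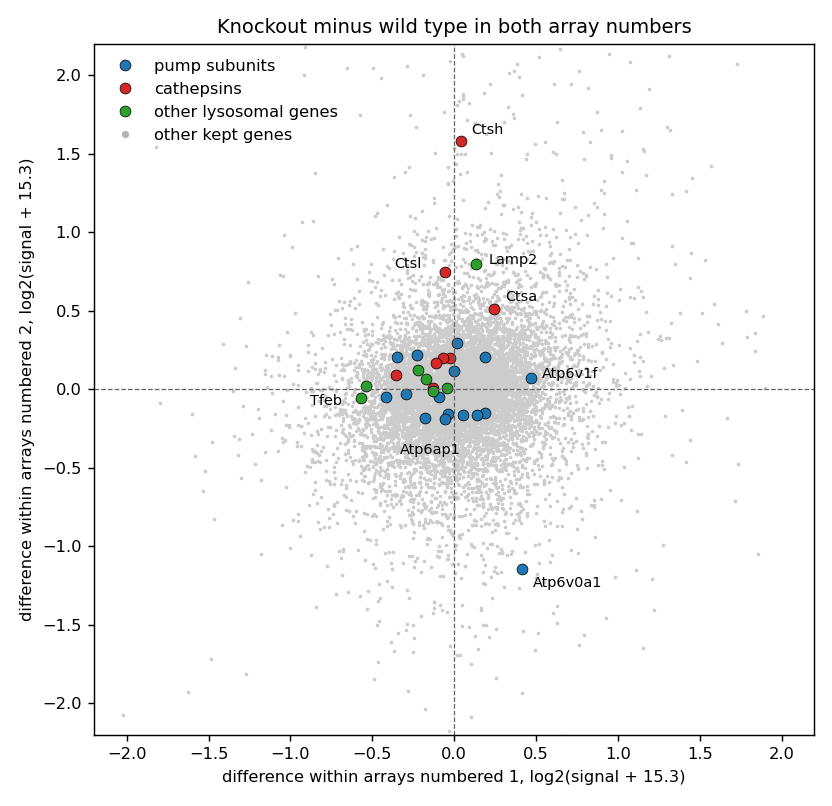
Knockout minus wild-type difference within arrays numbered 1 (horizontal) against that within arrays numbered 2 (vertical), both on the log2(signal + 15.3) scale, for member genes in colour and all other kept genes in grey; 47 kept genes lie beyond the axes. All 8 cathepsins are above the horizontal zero line, and most members lie inside the grey cloud.

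The other 7 measured genes code for lysosomal membrane proteins, hydrolase components and the regulator Tfeb, and had a median of -0.05 (-0.17 and 0.02). Lamp1, the most used marker of the lysosomal membrane, had signals of 7780 and 6673 (wild type) and 6904 and 6991 (knockout). The groups overlapped, and the difference was -0.05 (-0.17 and 0.07). Lamp2, needed for fusion with autophagosomes and for chaperone-mediated autophagy, was higher on average in all 4 of its kept probe sets, by 0.05 to 0.55.

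The Lamp2 probe set with the highest difference, one for transcript variants (suffix a), had signals of 115.7 and 74.4 (wild type) and 153.5 and 133.7 (knockout). Its groups did not overlap, and the difference of 0.55 (0.37 and 0.73) had a blocked 95% interval from 0.04 to 1.06 but a blocked adjusted p of 0.575 in limma. The brightest probe set, the one that differed most between array numbers, was at 0.46 (0.13 and 0.80). Laptm4a, a membrane protein of late endosomes, differed by -0.26 (-0.54 and 0.02). Hexa, the alpha chain of beta-hexosaminidase, was at -0.07 (-0.13 and -0.01), and Psap, the precursor of the saposins that activate sphingolipid hydrolases, at -0.05 (-0.22 and 0.12).

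Laptm5, a lysosomal membrane protein of blood cells that limits T cell receptor levels, gave probe sets that disagreed. Its 3 brightest lay between -0.03 and -0.02, and the brightest had signals of 13133 and 25704 (wild type) and 12740 and 25878 (knockout). The dimmest kept one, of a type marked x, had signals of 8.3 and 20.9 (wild type) and 106.7 and 316.9 (knockout). Both knockout arrays were far above both wild-type arrays, with a difference of 2.78 (2.37 and 3.20). With log2 means of 4.87 in wild type and 7.65 in the knockout it was kept only because the knockout arrays were high, so it had to differ, and its call with a trended prior supports nothing.

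The letter x marks probe sets whose probes can also bind other transcripts, a letter that the brightest Laptm5 probe set carries too. Another Laptm5 probe set, too dim for the filter, was at -0.71. With a pseudocount at the median of all values the difference of the dimmest kept one was 1.67. It was chosen for description after its values were seen. Which transcript gave this signal was not tested. Of the 18 member genes with more than 1 kept probe set, 8 had probe sets of both signs, and only Laptm5 and Lamp2 spanned more than 0.5.

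**Figure D5:**
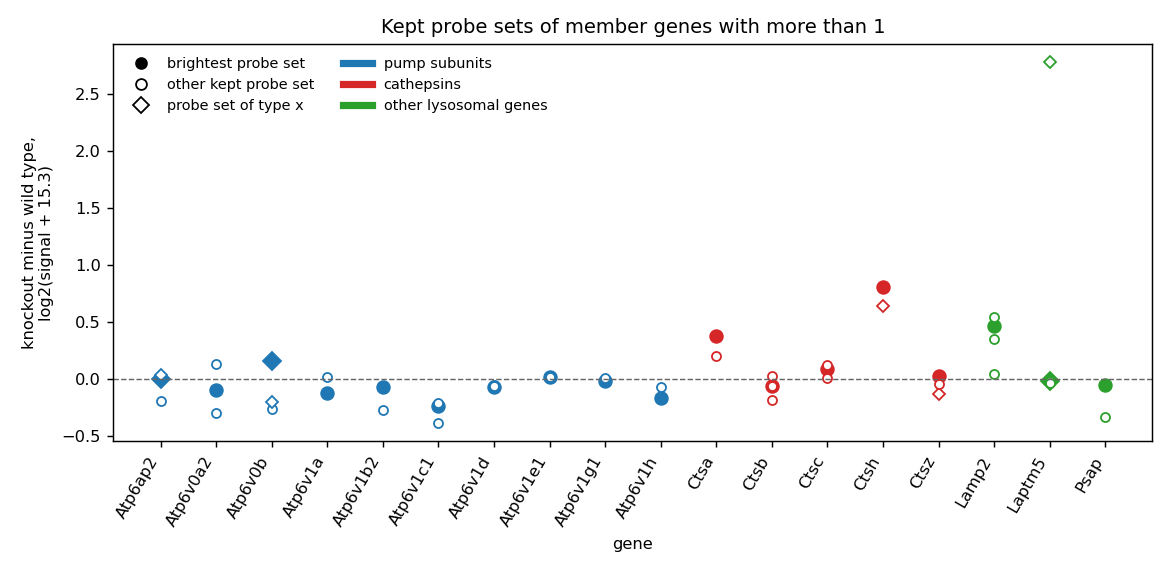
Knockout minus wild-type difference, on the log2(signal + 15.3) scale, of every kept probe set of the 18 member genes with more than 1 (filled, the brightest; diamonds, probe sets of type x; colours, gene group). The probe set of Laptm5 at 2.78 stands far from the other 3 of that gene, and the probe sets of every other gene except Lamp2 span less than 0.5.

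Tfeb, the transcription factor that drives lysosomal genes, had signals of 418.6 and 192.9 (wild type) and 276.8 and 185.3 (knockout). Its groups overlapped, and the difference of -0.31 (-0.57 and -0.05; SE 0.50 without and 0.22 with the block) came mostly from arrays numbered 1. Because members share this regulator by reputation, their promoter windows (250 bases before to 50 after each start, RefSeq, GRCm38.p6) were searched for the exact letters CACGTG, which read the same on both strands, and for the longer TCACGTGA that contains them. Windows were listed for 26 member genes. Of these, 8 held CACGTG (30.8%), against 8.09% of 27025 genes with a window and 12.3% of the 8343 that were also kept on the arrays. The longer form was in 5 (19.2%), against 1.12% and 2.40%. The 5 stretches shown, upstream of the start, are those of 2 pump genes, 2 cathepsins and the member with the most matches, with CACGTG in capitals, on the strand of the gene, 5′ to 3′. Those of Ctsa, Ctsd and Atp6v1a hold the longer form.
Lamp1, chr8:13159081-13159160, plus strand: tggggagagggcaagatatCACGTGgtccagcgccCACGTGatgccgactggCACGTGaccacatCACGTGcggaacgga
Atp6v0b, chr4:117887330-117887389, minus strand: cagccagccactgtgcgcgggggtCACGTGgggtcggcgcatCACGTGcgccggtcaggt
Ctsa, chr2:164833713-164833772, plus strand: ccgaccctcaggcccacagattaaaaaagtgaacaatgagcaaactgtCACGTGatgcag
Ctsd, chr7:142387888-142387947, minus strand: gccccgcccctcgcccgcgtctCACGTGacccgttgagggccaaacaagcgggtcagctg
Atp6v1a, chr16:44139360-44139419, minus strand: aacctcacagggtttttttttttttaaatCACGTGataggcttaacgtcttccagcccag

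Lamp1 was the member with the most matches, 4 within its last 80 bases before the start, and Atp6v0b, Ctsa and Ctsd had 2 each in their full windows. Single matches were in Atp6v0d1, Atp6v0e, Atp6v1a and Ctsl. By group, 4 of 12 pump genes, 3 of 6 cathepsins and 1 of 8 other genes held the letters. A match is a description of sequence and not a bound site. The 8 members with a match had a median difference of 0.003 (-0.03 and 0.10) and the 16 measured members with a window and no match one of -0.01 (-0.08 and 0.05). Both medians were near 0, and the difference between these sets was not tested.

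Beyond the members, 6 lists of other pump, protease, hydrolase, membrane, sorting and regulator genes held 93 kept genes. Their median difference was -0.01 (-0.02 and 0.04). Of the 93, 30 were higher and 26 lower within both numbers, where 27.7% and 27.2% of kept genes were. Of the same 93, 0 passed limma with or without the block. Once a trended prior was added to the block, 4 passed (Ctsw, Arsb, Lyz1 and Lyz2), where 1.11% of kept genes did. At least 1.5-fold apart in 1 direction within both numbers were 4 higher and 3 lower, against 1.38% and 0.578% of kept genes. The near-identical Lyz1 and Lyz2 are both among the 4 higher and among the 4 that passed with the trended prior. The lists were chosen with earlier results of these data known, so these counts are descriptions.

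The 8 kept genes of other pump subunits and assembly factors had a median of -0.01, and none was 1.5-fold apart within both numbers. Among 9 other proteases and inhibitors the gene with that separation was Ctsw, a cathepsin of cytotoxic lymphocytes. It had signals of 2413 and 4114 (wild type) and 851.1 and 1240 (knockout), which did not overlap. Its difference of -1.60 (-1.49 and -1.72) had an adjusted p of 0.211 in limma with the block and of 4.48e-07 with a trended prior as well. The summed signal of 8 measured CD8 T or NK cell markers was 3793 and 3550 (wild type) and 4328 and 3864 (knockout), and 2 of the 6 kept ones were at least 1.5-fold higher within both numbers and 0 as much lower. Gzma, a granule protease of cytotoxic cells and the marker with the highest difference, had signals of 195.4 and 89.6 (wild type) and 521.2 and 468.4 (knockout), a difference of 1.78 (1.35 and 2.21) with an adjusted p of 0.338 with the block and 0.000154 with a trended prior as well. The brightest marker, Klrd1, differed by -0.03 (0.04 and -0.09), and the one with the lowest difference, Cd8a, by -0.26 (0.08 and -0.60). The list thus had no common direction. The part of such cells in the Ctsw value was not tested.

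Of 23 other hydrolases and activators, 3 were so separated. Arsb, which removes sulfate from dermatan and chondroitin sulfate, had signals of 1409 and 1487 (wild type) and 671.1 and 810.9 (knockout), a difference of -0.96 (-1.05 and -0.86) with an adjusted p of 0.447 in limma with the block and 0.00497 with a trended prior as well. Lyz1 and Lyz2, which code for lysozymes, differed by 2.37 (1.25 and 3.48) and 1.66 (0.99 and 2.33). Lyz1, read by a probe set of type x, had signals of 185 and 129.4 (wild type) and 461.3 and 1604 (knockout). Those of Lyz2 were 54.6 and 174.2 (wild type) and 123.3 and 935.4 (knockout), and its groups overlapped. The adjusted p of Lyz1 and Lyz2 was 0.481 and 0.450 in limma with the block. It was 2.44e-05 and 0.00265 in limma with a trended prior as well. They are near-identical copies, so their signals cannot be assigned to either with certainty. Lyz2 also stands in the myeloid marker list, whose sums are given above.

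The lists of membrane, sorting and regulator genes each held 1 such gene. Tpcn2, a cation channel of the lysosomal membrane, had signals of 160.3 and 218.4 (wild type) and 86.1 and 111.9 (knockout). Its difference of -0.84 (-0.79 and -0.88) had an adjusted p of 0.494 in limma with the block and 0.266 with a trended prior as well. Sort1, a sorting receptor that carries hydrolases from the Golgi and is itself cut by furin, differed by 0.77 (0.81 and 0.73). Sort1 signals were 79.7 and 141.6 (wild type) and 150.8 and 244.6 (knockout). The adjusted p of Sort1 was 0.506 in limma with the block and 0.314 with a trended prior as well. Tfe3, a relative of Tfeb that binds the same element, had signals of 252.8 and 326.8 (wild type) and 402.3 and 550.6 (knockout). Its groups did not overlap, and its difference of 0.68 (0.64 and 0.73) was in the other direction from that of Tfeb. The blocked adjusted p of Tfe3 was 0.527 in limma, and the difference between Tfe3 and Tfeb was not tested.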

How the data were processed

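The table deposited by the authors holds 1 intensity for each probe set and array, a linear MAS5 signal. The submitters' processing notes name MAS5 without a version, and its settings were not given in the sources used here. No detection calls were used, so signal over background is unknown for single probe sets.

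Of 45101 probe sets, 64 controls were left out. Symbols came from the platform annotation, updated through Entrez identifiers in a RefSeq table (GRCm38.p6). Tests used log2(signal + 15.3), the added constant being the 25% quantile of the table. The 22518 probe sets above the median of the mean log2 values were kept, and the brightest kept probe set stood for its gene. Limma 3.58.1 in R 4.3.3 (lmFit, eBayes, two-sided, Benjamini-Hochberg over all kept probe sets) compared the genotypes without a block. The block for array number was an alternative, since the labels give arrays numbers 1 and 2 but no shared animal or day. The fits were tested on simulated data. Members and lists were chosen with earlier results of these data known. Genes named are all members, Furin, and up to 3 genes per wider list that were at least 1.5-fold apart in 1 direction within both array numbers. Some cell type markers are named as well. The marker lists for CD8 T or NK cells, whose members moved unevenly, and for erythroid cells or platelets had median differences of 0.07 and -0.33.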

Additional observations from a re-analysis of the deposited data

How the results depend on the processing

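Of 307 recomputed differences of member genes that used all 4 arrays, 303 kept their direction and none crossed the threshold. Many of them could not change direction, since the filter, trended-prior and block settings leave a difference as it is. The mean of a gene's kept probe sets likewise changes nothing for the 13 genes with 1 kept probe set. The count of 303 is therefore no measure of robustness. The exceptions were Atp6v0b at -0.10, Ctsz at -0.046 and Laptm5 at 0.68 with the mean of a gene's kept probe sets, and Ctss at -0.011 with quantile normalization. The Laptm5 mean includes the dimmest kept probe set, which passed the filter only through the knockout arrays. No member count changed with the pseudocount, filter, scaling or an adjusted p under 0.10. With the array number as a block, which leaves differences as they are, limma called 6 probe sets of all, and 260 with a trended prior as well, of which 0 and 1 (that Laptm5 probe set) were members; no other member call changed. The pump median was -0.088 with quantile normalization and -0.019 with arrays numbered 1 only, and the median of all members was 0.067 with arrays numbered 2 only. The single-number comparisons, the count over all kept probe sets and the comparison without Ctsh were added after the data were seen.

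When 1 array is left out, genotype and array number are mixed. The medians then ranged from -0.16 to 0.045 for pump genes, 0.098 to 0.39 for cathepsins, -0.22 to 0.058 for other lysosomal genes and -0.16 to 0.058 for all members, and the pump minus cathepsin value from -0.53 to -0.052. Of the 31 genes, 24 took both signs, namely Atp6ap2 from -0.90 to 0.89, Atp6v0a1 from -1.27 to 0.54, Atp6v0b from -0.18 to 0.49, Atp6v0d1 from -0.34 to 0.46, Atp6v0e from -0.32 to 0.21, Atp6v1a from -0.34 to 0.094, Atp6v1b2 from -0.69 to 0.55, Atp6v1d from -0.51 to 0.38, Atp6v1e1 from -0.070 to 0.11, Atp6v1f from -0.46 to 0.999, Atp6v1g1 from -0.41 to 0.39, Ctsb from -0.39 to 0.27, Ctsc from -0.46 to 0.63, Ctsd from -0.55 to 0.28, Ctsh from -0.31 to 1.94, Ctss from -0.22 to 0.35, Ctsz from -0.37 to 0.43, Hexa from -0.36 to 0.22, Lamp1 from -0.16 to 0.058, Lamp2 from -1.24 to 2.16, Laptm4a from -0.58 to 0.064, Laptm5 from -0.53 to 0.49, Psap from -0.19 to 0.090, Tfeb from -0.84 to 0.22. Ctsa, Ctsl, Tcirg1, Atp6ap1, Atp6v0a2, Atp6v1c1 and Atp6v1h kept their sign. With 4 arrays and no detection calls, differences of dim members such as Ctsh and Atp6v0a1 are the least certain.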
